A study of Mus musculus with 5 samples.

Results

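Car4+Gpnmb+ macrophages of the mouse lung were selected on their measured UMIs, that is, on counts of distinct RNA molecules. A barcode was taken when it held 2 or more UMIs of *Car4*, 1 or more of *Cd68* and 5 or more of *Gpnmb*, *Mmp12* and *Mfge8* summed, with none of *Top2a*, *Mki67*, *Cd3e* or *Cd79a*. Of 44772 cells that passed the filter on genes, UMIs and mitochondrial share, 4713 met this rule (10.5%, 95% exact binomial interval 10.2 to 10.8), out of 7295 Car4+ macrophages that passed the other gates. The values that chose the cells are given as a description and were not tested.

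The cells came from 5 droplet scRNA-seq libraries of lung immune cells of *Ms4a3-CreER;R26-tdT* mice, 1 library from PBS-treated lungs (sham) and 4 from lungs taken 3, 7, 14 or 28 days after injury with bleomycin, a drug that damages the alveolar epithelium and leads to fibrosis. Every library, the sham included, carries both alleles. *Ms4a3* is active in progenitors of granulocytes and monocytes, so that the inducible Cre can switch on the tdT reporter in cells that arise from monocytes after tamoxifen, and cells formed before induction stay unlabelled. The numbers of mice behind each library are not given in the sources used here, and no library has a replicate. The libraries held 131210167 UMIs in sham and 89769386, 151234640, 144984156 and 167506186 UMIs at day 3, day 7, day 14 and day 28. The day 7 library held exactly 10000 barcodes and none under 4624 UMIs, whereas the lowest barcode of each other library had 500 or 502 UMIs. Any pair of libraries shared 22 to 41 barcode sequences, at most 0.420% of the smaller library.

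Alveolar macrophages (AMs) live on the airspace surface, where they clear surfactant lipid and debris, and they depend on GM-CSF and the transcription factor *Pparg*. *Car4* encodes a membrane-bound carbonic anhydrase carried by AMs. *Gpnmb* encodes a transmembrane glycoprotein of lysosomes and phagosomes, *Mmp12* a macrophage elastase, and *Mfge8* a secreted bridge between dying cells and phagocytes. In fibrotic lungs these 3 genes, together with *Spp1* and *Trem2*, mark macrophages that lie near scars.

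Car4+Gpnmb+ macrophages were most abundant in the sham library. They numbered 2468 in sham, 26.7% of its filtered cells (95% exact binomial interval 25.8 to 27.6). After bleomycin the library of day 3 held 247 (3.09%), that of day 7 held 572 (6.03%), that of day 14 held 499 (6.43%) and that of day 28 held 927 (9.02%). Of the Car4+ macrophages of each library, they made up 67.5% in sham and, in order of time, 43.6%, 56.2%, 62.1% and 74.1% after bleomycin. These intervals cover counting error only, and with 1 library per time point no test between time points was possible. The rule counts raw UMIs and so picks deeper barcodes: the median was 18228.5 UMIs per cell in sham and 20452, 19952, 27515 and 21055 at day 3 to day 28, against 10516 to 17669 in Car4+ macrophages with 0 or 1 UMI of the 3 genes. After reduction to 4000 UMIs per cell and new gating, Car4+Gpnmb+ macrophages numbered 514, 34, 68, 38 and 115 from sham to day 28. Car4+ macrophages with 0 or 1 UMI then numbered 1367, 316, 438, 280 and 276, more in each library.

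**Figure D1:**
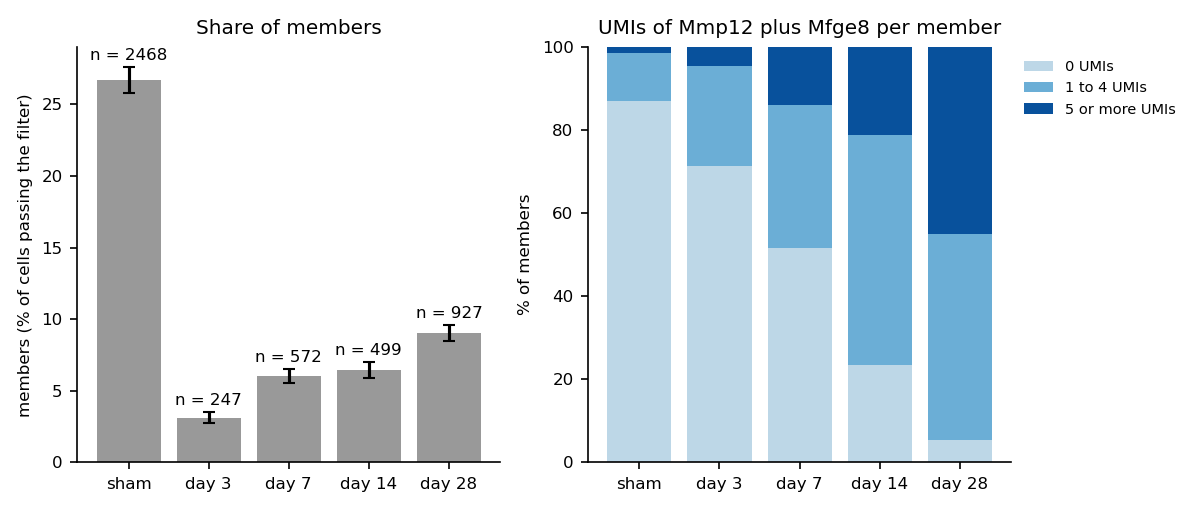
Number of Car4+Gpnmb+ macrophages in each library and the gate genes they carried, with 95% exact binomial intervals on the shares. Sham held 2468 of the 4713 cells, and the share with 5 or more UMIs of *Mmp12* and *Mfge8* summed was 1.46% in sham and 45.1% at day 28.

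The 3 genes of the rule contributed unequally to the selection from library to library. In sham, 98.6% of the cells had 5 or more *Gpnmb* UMIs, and 87.0% had no *Mmp12* and no *Mfge8* UMI at all. After bleomycin the share without either gene was 71.3%, 51.6%, 23.4% and 5.29%, from the earliest to the latest library. Cells with 5 or more UMIs of *Mmp12* and *Mfge8* summed made up 1.46% of the sham cells (36), then 4.45% (11), 14.0% (80), 21.2% (106) and 45.1% (418) of those at day 3, day 7, day 14 and day 28. B cell barcodes, which should lack both genes, reached that sum in 0%, 0.161%, 2.94%, 0% and 2.03% of cells in the same order, at median depths of 4139, 5724.5, 7006.5, 5419 and 3330 UMIs. The *Gpnmb* part of the rule was thus met from sham on, and the *Mmp12* and *Mfge8* part in few cells before day 7.

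As levels, in CPM (UMIs of a gene over all UMIs of the class, scaled to 1000000), *Gpnmb* was 800 in sham and 737, 646, 491 and 673 at day 3, day 7, day 14 and day 28. *Mmp12* was 13.2 in sham and 26.1, 108, 247 and 365 CPM afterwards. *Mfge8* was 5.83 in sham and 20.4, 32.8, 55.2 and 592 CPM. *Gpnmb* thus differed by less than 2-fold among the 5 libraries, whereas *Mmp12* and *Mfge8* were highest at day 28. These means rested on a minority of the cells: at day 28 the mean was 8.70 *Mmp12* UMIs per cell with a median of 1, and 14.1 *Mfge8* UMIs with a median of 3. Without predicted doublets *Mmp12* was 164 CPM at day 14 and 195 CPM at day 28, and *Mfge8* was 39.5 and 372 CPM. When each cell was reduced at random to 4000 UMIs, a *Mmp12* UMI was found in 28.9% of the cells at day 28 and in 35.1% of B cells, and at day 14 in 24.8% and 26.1%, so that single *Mmp12* UMIs at these days were at or below background. *Car4* itself was 1316 CPM in sham and 1666, 717, 414 and 498 CPM in the later libraries. The cells just inside the sum of 5, at 5 or 6 UMIs, and those just outside, at 3 or 4, numbered 469 and 509 in sham and 162 and 176 at day 28, with *Siglecf* at 120 and 140 CPM in sham. At the other limit, cells with 2 *Car4* UMIs numbered 59, 17, 61, 73 and 143 from sham to day 28, and cells with 1, just outside, numbered 77, 150, 177, 194 and 382.

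Checked against AM markers, the class as a whole was AM-like in every library, less so at the limit of 2 *Car4* UMIs. *Siglecf*, a lectin receptor that defines mouse AMs, was 121 CPM in sham and 119, 101, 120 and 118 at day 3, day 7, day 14 and day 28. *Pparg* was 129, 94.4, 92.1, 120 and 87.6 CPM in the same order. *Chil3*, a secreted chitinase-like protein, was 15915 CPM in sham and between 9638 and 11480 CPM after bleomycin. Of these, *Siglecf* differed least between libraries. In the cells with 2 *Car4* UMIs it was 66.0, 39.5, 68.0, 89.5 and 105 CPM, below the whole class in each library, and *C1qa*, an interstitial macrophage gene, was 87.7, 506, 180, 554 and 261 CPM. Of 20 AM identity genes, 3 were lower by 2-fold at day 28 than in sham and none higher, with a median log2 ratio of -0.30, beside 4.63% lower and 4.4% higher among all genes at this level. The fatty acid carrier *Fabp1* was 375 CPM in sham and 111, 72.8, 75.9 and 62.6 CPM afterwards. The scavenger receptor *Marco* was 732, 566, 588, 291 and 216 CPM, lowest at day 28.

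Car4+Gpnmb+ macrophages were then compared with Car4+ macrophages that passed the same gates but held 0 or 1 UMI of the 3 genes (411, 169, 220, 106 and 72 cells in sham, day 3, day 7, day 14 and day 28). UMIs were summed per class and library and tested over 10962 genes with edgeR's quasi-likelihood test with library as a block, so that the libraries served as replicates of the difference between classes. Benjamini–Hochberg adjusted p-values under 0.05 were found for 520 genes, 350 higher (3.19% of the genes tested) and 170 lower (1.55%), and 466 of them had the same sign in all 5 libraries. The median log2 fold change over all genes was -0.01. The count depends on the block, since 2 genes passed without it, and among cells of 10000 to 20000 UMIs the split was 186 higher and 162 lower.

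Of 32 lysosome enzymes and proton pump subunits, 20 passed as higher and none as lower, with a list median of 0.42. The count was 12 without day 3 or day 7, 14 without day 28, 15 without sham and 21 without day 14, with none lower. *Ctsl*, a lysosomal cysteine protease, was 438 CPM in sham and 705, 413, 772 and 902 CPM at day 3 to day 28, against 242, 358, 268, 420 and 489 CPM in the low class, higher within each library. Its log2 fold change was 0.91 ± 0.07 (SE; edgeR adjusted p = 0.000159). The cathepsin *Ctsb* was 1048, 2139, 1600, 1950 and 2178 CPM against 666, 877, 795, 1297 and 1474 CPM (0.88 ± 0.10; edgeR adjusted p = 0.00132). The aspartic protease *Ctsd* followed with 0.85 ± 0.07, the galactosidase *Gla* with 0.84 ± 0.12 and the membrane protein *Lamp1* with 0.46 ± 0.06. The direction was the same in both settings that limit depth. Among cells of 10000 to 20000 UMIs, 16 of 31 tested genes of the list were higher and none lower. After reduction of each cell to 4000 UMIs and new gating, 20 of 31 were higher and none lower. The new gates also changed the classes, and depth inside the window was not compared between them.

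Promoters of these lysosomal genes are shown because the genes were higher together and CACGTG, the E-box core read by the TFEB and MITF family of factors, is known from many lysosomal promoters. RefSeq promoter windows of GRCm38.p6 hold 250 bases before to 50 after each start, and only the 250 bases before were searched. Both strands were searched for the motif CACGTG, its variant CATGTG and the AP-1 motif TGANTCA. Each motif was counted separately, so that partly overlapping matches count for both. CACGTG stood in 1854 of 27025 genes with a window (6.86%), in 9 of the 22 lysosome genes with one (40.9%) and in 6 of the 13 that were also higher in Car4+Gpnmb+ macrophages (46.2%). CATGTG stood in 13.8% of all genes and 3 of the 22, and TGANTCA in 7.82% of all genes and 2 of the 22. The stretches of these 6 genes that hold the motif, and the 250 bases before the start of *Gpnmb*, which hold none of the 3 motifs, read 5′ to 3′ on the gene's strand as follows, with each CACGTG in capitals.
Gpnmb, chr6:49036268-49036517, plus strand: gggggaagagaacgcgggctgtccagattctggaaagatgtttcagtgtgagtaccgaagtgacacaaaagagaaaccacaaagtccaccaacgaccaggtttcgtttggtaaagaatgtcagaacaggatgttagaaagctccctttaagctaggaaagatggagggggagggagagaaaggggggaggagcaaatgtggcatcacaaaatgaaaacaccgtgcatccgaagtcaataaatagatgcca
Atp6v1a, chr16:44139358-44139417, minus strand: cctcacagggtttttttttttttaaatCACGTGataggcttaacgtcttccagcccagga
Ctsa, chr2:164833734-164833772, plus strand: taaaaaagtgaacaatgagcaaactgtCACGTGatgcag
Ctsd, chr7:142388040-142388077, minus strand: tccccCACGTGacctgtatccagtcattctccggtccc
Ctsd, chr7:142387893-142387952, minus strand: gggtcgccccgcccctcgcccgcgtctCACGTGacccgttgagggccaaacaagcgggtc
Ctsl, chr13:64370724-64370770, minus strand: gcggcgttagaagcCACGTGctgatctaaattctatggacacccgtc
Gla, chrX:134601167-134601255, minus strand: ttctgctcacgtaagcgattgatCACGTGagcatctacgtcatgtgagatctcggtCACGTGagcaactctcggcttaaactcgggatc
Lamp1, chr8:13159073-13159160, plus strand: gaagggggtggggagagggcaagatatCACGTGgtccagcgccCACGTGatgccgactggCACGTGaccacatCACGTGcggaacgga
*Lamp1* held 4 matches within 88 bases, *Gla* 2 and *Ctsd* 2, in separate stretches. A match is a description of the letters and shows no binding.

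Of 20 genes of scar-associated macrophages, 14 passed as higher and 1 as lower, with a median of 0.81, and 11 to 15 were higher when 1 library was left out. *Ctsk*, a collagen-degrading cathepsin, was 952 CPM in sham and 1132, 960, 904 and 889 CPM at day 3 to day 28, against 193, 385, 409, 420 and 380 CPM in the low class. Its lowest value lay above the highest of the low class (1.55 ± 0.15; edgeR adjusted p = 0.000714). *Cd63*, a tetraspanin of late endosomes, was 759, 872, 676, 625 and 970 CPM against 250, 301, 306, 430 and 506 CPM, again without overlap (1.22 ± 0.14; edgeR adjusted p = 0.00132). *Trem2*, a lipid-sensing receptor, was 97.6 CPM in sham and 219 to 258 CPM after bleomycin, against 47.0, 92.6, 122, 187 and 175 CPM, so that the classes overlapped across libraries and differed within each (0.84 ± 0.13; edgeR adjusted p = 0.00662). *Syngr1*, a vesicle membrane protein, had the largest change of the list (2.17 ± 0.13; edgeR adjusted p = 2.71e-05) at low levels of 7.55 to 58.1 CPM. Among cells of 10000 to 20000 UMIs this was 1.11, below *Ctsk* at 1.33. *Fn1*, which encodes fibronectin, was the gene that went the other way (-0.44 ± 0.10, edgeR adjusted p = 0.0309). This call was lost without any 1 of the bleomycin libraries (edgeR adjusted p up to 0.111 without day 14). The *Fn1* difference was -0.65 after reduction to 4000 UMIs and new gates (edgeR adjusted p = 1.67e-06). Among cells of 10000 to 20000 UMIs it was -0.73 (edgeR adjusted p = 6.41e-05). *Spp1*, osteopontin, was 850 CPM in sham and 7430, 3270, 8941 and 9621 CPM at day 3 to day 28, against 580, 3129, 2458, 9798 and 7411 CPM in the low class, and did not pass (0.55 ± 0.15; edgeR adjusted p = 0.068). It passed without day 14 (edgeR adjusted p = 0.0201), without barcodes of dendritic markers or much *Scgb1a1* (0.0394) and after reduction of each cell to 4000 UMIs (0.59; 5.87e-06), whereas among cells of 10000 to 20000 UMIs it was at 0.12 (0.521).

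Carriers and receptors for fatty acids were among the higher genes, as were genes of oxidative stress and iron. *Fabp5*, an intracellular fatty acid carrier, was 2423, 2400, 2303, 2007 and 1917 CPM from sham to day 28, against 904 to 1180 CPM in the low class (1.19 ± 0.09; edgeR adjusted p = 0.000154). The scavenger receptor *Cd36* was 517 CPM in sham and 183 to 268 CPM after bleomycin, higher within each library (1.51 ± 0.30; edgeR adjusted p = 0.0191, and 0.0685 without day 7 and 0.0731 without day 28). Of 22 genes of fatty acid uptake and lipid droplets 9 were higher and 2 lower, namely *G0s2* (-1.19), an inhibitor of triglyceride lipase, and *Fabp1* (-0.86). Neither lower call held throughout: *G0s2* was at -0.50 (edgeR adjusted p = 0.106) among cells of 10000 to 20000 UMIs, and *Fabp1* had edgeR adjusted p up to 0.0755 when day 3, day 7 or day 28 was left out. Of 20 oxidative stress and iron genes 8 were higher and none lower, led by the ferritin subunits *Fth1* (0.85 ± 0.05) and *Ftl1* (0.65 ± 0.06). The growth factor *Igf1* was 40.5, 89.5, 86.1, 26.2 and 151 CPM against 22.7, 16.5, 22.7, 11.3 and 78.5 CPM (1.48 ± 0.19; edgeR adjusted p = 0.00276). AM identity genes showed no shared direction: of 20, 5 were higher, among them *Fabp4* (1.05) and *Marco* (0.75, but 0.15 after reduction to 4000 UMIs, with edgeR adjusted p = 0.633), and 2 lower, *Fabp1* and *Ear2* (-0.46, but -0.21 among cells of 10000 to 20000 UMIs, with edgeR adjusted p = 0.0657), with a median of 0.03. *Siglecf* differed by 0.03 ± 0.07 (edgeR adjusted p = 0.889).

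**Figure D2:**
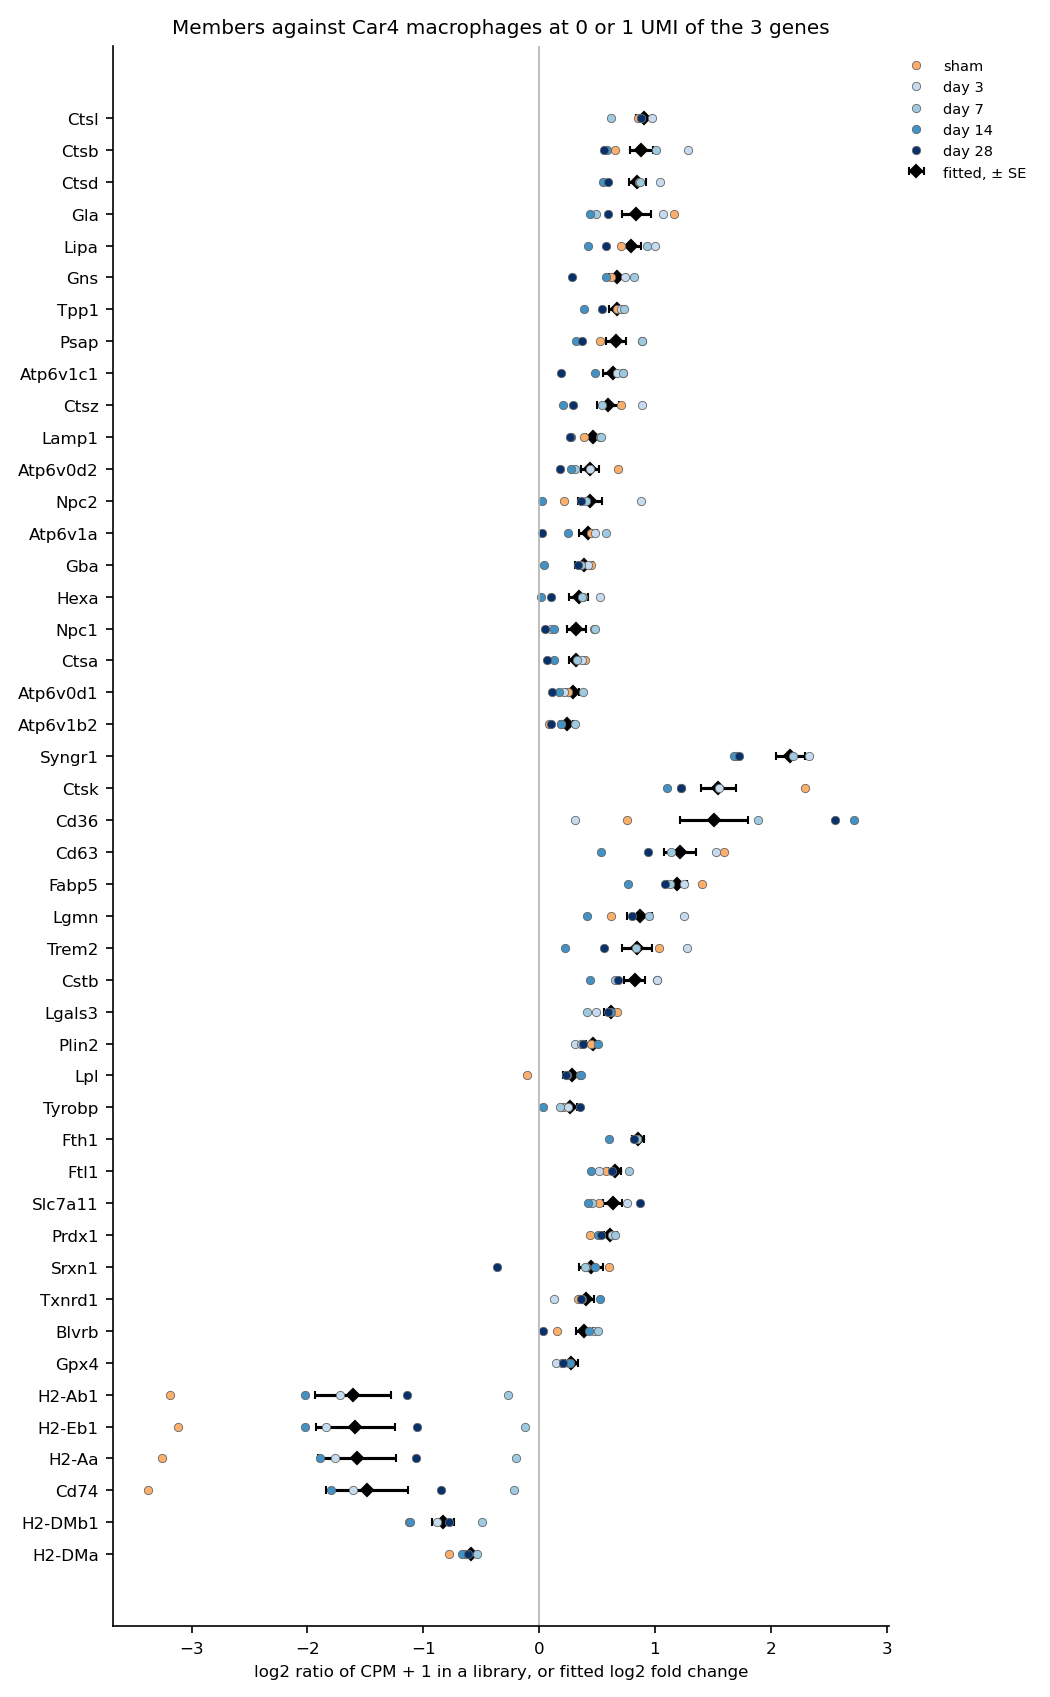
Log2 ratio of CPM + 1 in Car4+Gpnmb+ macrophages over Car4+ macrophages low in the 3 genes. Drawn are lysosome, scar-associated and oxidative stress and iron genes that passed as higher, and MHC class II genes that passed as lower. Genes of these lists that did not pass or went the other way are not drawn. Points are libraries and diamonds the fitted log2 fold change with its SE; *Ctsk*, *Cd63* and *Fabp5* lie above 0 in all 5 libraries and *H2-Aa* below 0.

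Of 15 MHC class II genes 6 were lower and none higher, with a median of -0.83, and 2 were lower without day 3, day 14 or day 28. *H2-Aa*, an MHC class II chain, was 56.4 CPM in sham and 245, 484, 262 and 446 CPM at day 3, day 7, day 14 and day 28, against 548, 836, 554, 975 and 933 CPM in the low class (-1.57 ± 0.34; edgeR adjusted p = 0.029). The values of the classes did not overlap. Its invariant chain *Cd74* was lower as well (-1.49 ± 0.36; edgeR adjusted p = 0.042). Without day 3, day 14 or day 28 both missed the threshold, *H2-Aa* with edgeR adjusted p of 0.0945, 0.0886 and 0.0704. Among cells of 10000 to 20000 UMIs *H2-Aa* was lower by -1.97 (edgeR adjusted p = 0.00784), whereas after every cell was reduced to 4000 UMIs and gated again the difference was -0.16 (edgeR adjusted p = 0.73), and 2 of 11 tested genes of the list were higher and 1 lower. The new gates also changed the classes, for example from 411 to 1367 low cells in sham and from 927 to 115 Car4+Gpnmb+ macrophages at day 28, so that depth and membership cannot be told apart. In the low class the 8 dendritic cell markers summed to 104, 87.3, 74.9, 35.8 and 15.7 CPM against 18.3, 24.0, 57.8, 24.0 and 16.6 CPM, and in sham the club cell gene *Scgb1a1* was 9437 against 691 CPM. The 7 neutrophil markers summed to 1903, 1172, 1325, 523 and 243 CPM in the low class against 407, 377, 628, 391 and 447 CPM. The part of the neutrophil signal in the differences was not tested. Without barcodes that carried dendritic markers or much *Scgb1a1*, *H2-Aa* was lower by -1.56 (edgeR adjusted p = 0.00236).

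The study names genes for its injury-specific Mac0 cluster, some as low or intermediate there. It set that cluster against AMs, monocytes and other clusters, and found it negligible in steady-state lungs. The contrast here lies within Car4+ macrophages, sham included, so that neither the cells nor the reference are those of the study. Of the genes it names, *Spp1*, *Siglecf*, *Cyp51*, *Cd44* and *Itgam* did not pass between Car4+Gpnmb+ macrophages and the low class. *Ctsb* was higher and *H2-Aa*, *Cd74* and *Fn1* were lower, with the limits given above. *Lpl*, lipoprotein lipase, was 2062, 2407, 2046, 2899 and 3302 CPM and passed narrowly, with the same sign in 4 of 5 libraries (0.28 ± 0.07; edgeR adjusted p = 0.04996, and 0.493 after reduction to 4000 UMIs). *Cd44*, a hyaluronan receptor, was 2292, 1438, 1591, 2325 and 2815 CPM and differed by -0.00 ± 0.06. *Cyp51*, an enzyme of cholesterol synthesis, was 68.7, 151, 108, 161 and 94.3 CPM and differed by -0.02 ± 0.13. *Itgax*, the CD11c integrin chain, was slightly higher (0.36 ± 0.09; edgeR adjusted p = 0.0413), and both *Lpl* and *Itgax* lost their call in 4 of the 5 fits that left out 1 library, with edgeR adjusted p up to 0.150 without day 7 and 0.153 without day 3. *Itgam*, the CD11b chain, was 6.77 CPM in sham and 51.9, 20.9, 8.15 and 13.4 CPM at day 3 to day 28, with a difference of 0.25 ± 0.44 (edgeR adjusted p = 0.852).

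A second comparison asked how Car4+Gpnmb+ macrophages differed from macrophages that met the same sum of the 3 genes but held no *Car4* UMI (53, 985, 1429, 1293 and 2972 cells from sham to day 28). Of 13162 genes tested in the same way, 3343 had an adjusted p under 0.05, 1713 higher (13%) and 1630 lower (12.4%), with a median of -0.03 over all genes and the same sign in all 5 libraries for 2906. The count was 782 without the block and 1078 after reduction to 4000 UMIs. Without day 14 it was 1489, without day 7 it was 1521, and without day 3 it was 3704. The Car4+ cells were set apart by AM genes and the Car4-negative cells by interstitial macrophage genes. Of 20 AM identity genes 14 were higher and none lower (median 2.09). *Krt79*, a keratin found in mouse AMs, was 748, 245, 144, 327 and 268 CPM against 169, 1.14, 7.28, 18.3 and 29.7 CPM (3.98 ± 0.68; edgeR adjusted p = 0.00671). *Siglecf* was 101 to 121 CPM in all libraries against 35.7, 3.49, 15.9, 24.0 and 40.2 CPM (2.53 ± 0.49; edgeR adjusted p = 0.00996, and 0.0546 without day 7).

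Of 18 interstitial macrophage and monocyte genes tested, 17 were lower and none higher (median -2.74). *C1qa*, a chain of complement C1q, was 7.13 CPM in sham and 102, 224, 218 and 201 CPM at day 3 to day 28, against 143, 920, 1792, 2629 and 1700 CPM in Car4-negative cells. It was lower in each library (-3.47 ± 0.19; edgeR adjusted p = 0.000195). The transcription factor *Maf* was lower by -2.58 ± 0.12. *Itgam* was lower as well (-2.95 ± 0.22; edgeR adjusted p = 0.000353). *Pdgfa*, a growth factor for fibroblasts, was 0.610 to 10.2 CPM against 39.8 to 138 CPM (-3.69 ± 0.69; edgeR adjusted p = 0.00904).

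**Figure D3:**
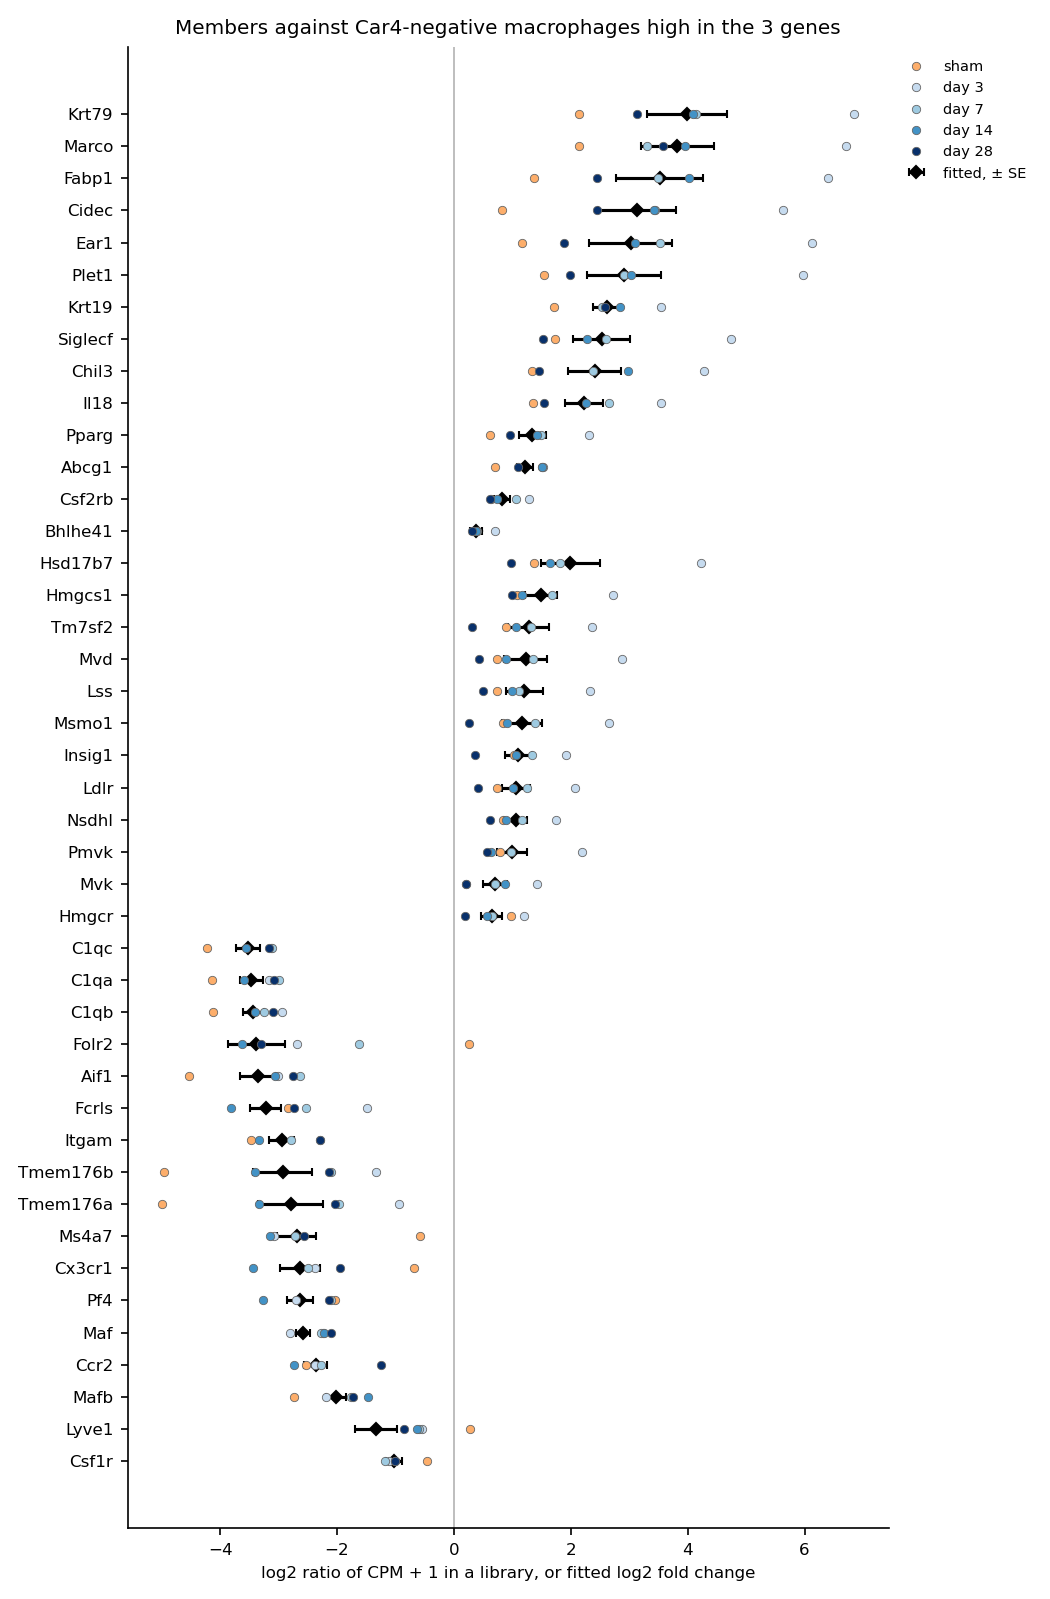
Log2 ratio of CPM + 1 in Car4+Gpnmb+ macrophages over Car4-negative macrophages with the same sum of the 3 genes. Drawn are AM identity and cholesterol synthesis genes that passed as higher, and interstitial macrophage and monocyte genes that passed as lower. Genes of these lists that did not pass are not drawn. Points are libraries and diamonds the fitted log2 fold change with its SE; *Krt79* and *Marco* lie above 0 and *C1qa*, *C1qb* and *C1qc* below 0 in all 5 libraries.

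Scar-associated genes were in part lower in Car4+Gpnmb+ macrophages than in the Car4-negative cells: 10 of 20 were lower and 1 higher (median -0.72). *Apoe*, a lipid carrier, was 31.9, 260, 1457, 2193 and 1732 CPM against 106, 2303, 12752, 19580 and 15774 CPM (-2.96 ± 0.28; edgeR adjusted p = 0.000681). *Trem2* was lower (-1.33 ± 0.18; edgeR adjusted p = 0.00274) and the tetraspanin *Cd9* higher (0.99 ± 0.27; edgeR adjusted p = 0.0324, and 0.131 without day 7, with the call also lost without sham or day 14). *Spp1* was 3652, 2439, 5758, 20030 and 16855 CPM in Car4-negative cells and did not pass (-0.78 ± 0.48; edgeR adjusted p = 0.28), but was lower by -1.28 without day 3 (edgeR adjusted p = 0.00417). Nor did *Fn1* pass (-0.32 ± 0.65; edgeR adjusted p = 0.767). *Trem2* and *Syngr1* therefore took a middle level, above the Car4+ low class and below the Car4-negative cells in each library.

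Of 22 cholesterol synthesis genes 12 were higher in Car4+Gpnmb+ macrophages than in the Car4-negative cells and none lower (median 1.13). *Hmgcs1*, which opens the mevalonate pathway, was 124, 196, 181, 209 and 269 CPM against 58.0, 28.7, 55.9, 92.6 and 135 CPM (1.49 ± 0.27; edgeR adjusted p = 0.00864, and 0.0513 without day 7). *Cyp51* did not pass (1.33 ± 0.42; edgeR adjusted p = 0.0545), except without day 3 or without barcodes of dendritic markers or much *Scgb1a1* (1.44; edgeR adjusted p = 0.0459). *Lpl* did not pass either (1.28 ± 0.62; edgeR adjusted p = 0.171), except after reduction to 4000 UMIs (edgeR adjusted p = 0.0397). *Cd44* was higher (1.36 ± 0.18; edgeR adjusted p = 0.00245). Interferon-stimulated genes were lower, 22 of 24 with none higher (median -1.33), led by the deubiquitinase *Usp18* (-2.72) and the membrane protein *Ifitm3* (-2.53). Of 20 chemokine ligands 11 were lower and none higher, led by *Cxcl16* (-3.01) and *Ccl12* (-2.96). Of 15 MHC class II genes 10 were lower, among them *H2-Aa* (-2.26 ± 0.47; edgeR adjusted p = 0.0131) and *Cd74* (-2.24 ± 0.49; edgeR adjusted p = 0.0163), which both missed the threshold without day 7 (edgeR adjusted p = 0.0566 and 0.0658) and in 1 further such fit. Dendritic cell markers moved with them, at 985, 61.3, 212, 98.9 and 36.0 CPM in Car4-negative cells against 18.3, 24.0, 57.8, 24.0 and 16.6 CPM, and 10 of the 53 Car4-negative cells in sham carried C1q. Without barcodes of dendritic markers or much *Scgb1a1*, *H2-Aa* was lower by -1.74 (edgeR adjusted p = 0.0104). Of 32 lysosome genes 9 were lower, among them *Ctsb* (-1.16 ± 0.14; edgeR adjusted p = 0.00166), and 2 proton pump subunits were higher.

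**Figure D4:**
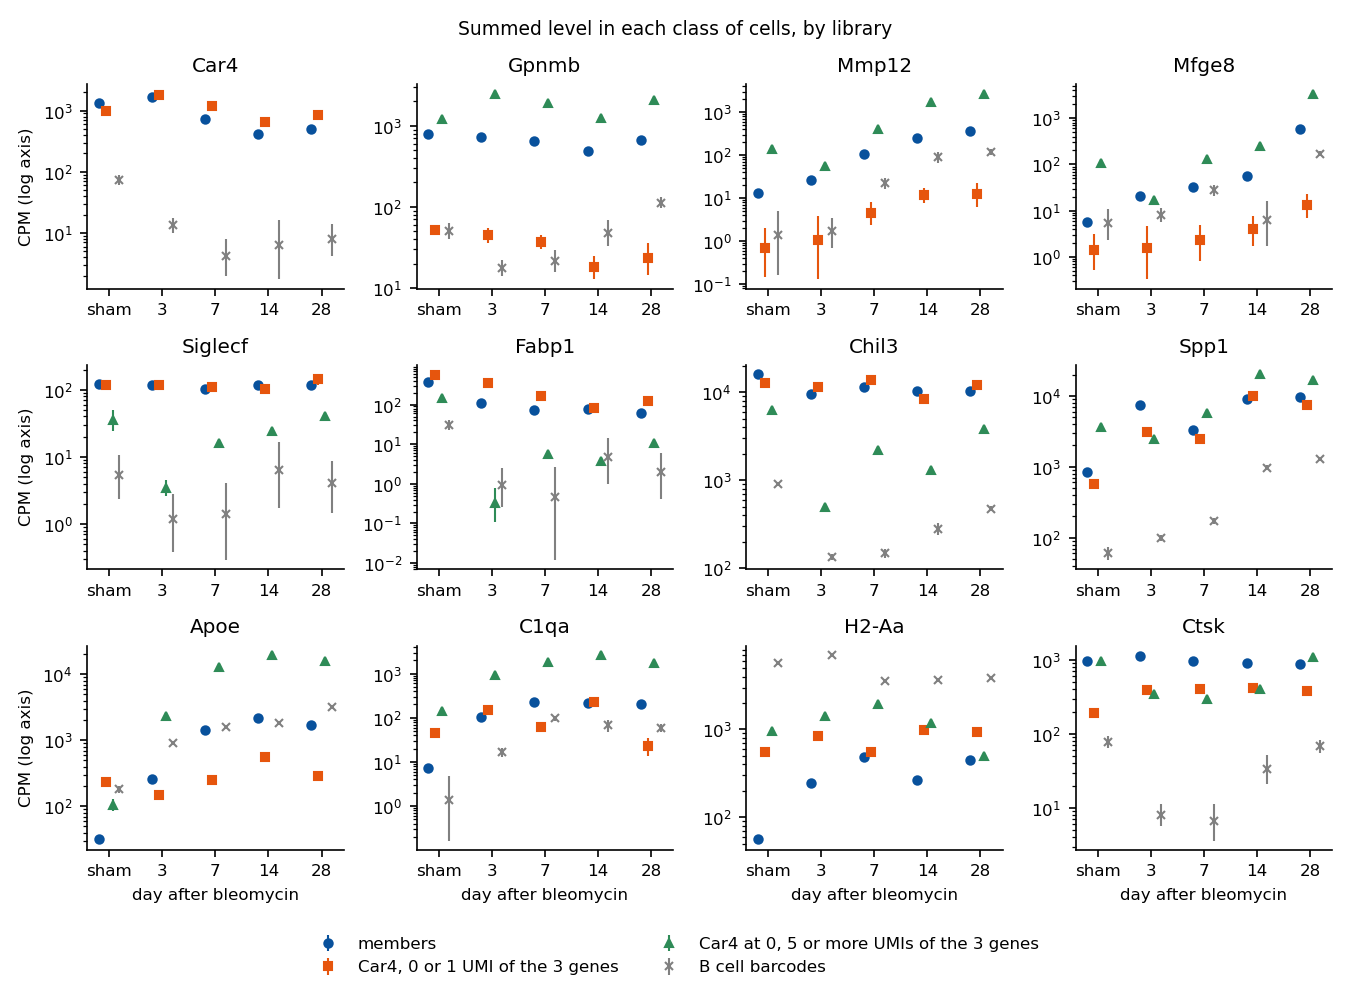
Level of selected genes in each library, as CPM of summed UMIs on a log axis with 95% exact Poisson intervals, in Car4+Gpnmb+ macrophages (members in the legend), Car4+ macrophages low in the 3 genes, Car4-negative macrophages with the same sum and B cell barcodes. *Siglecf* stays between 101 and 121 CPM in the first class, and *C1qa* there is below the Car4-negative level in all 5 libraries.

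The transcriptome of Car4+Gpnmb+ macrophages was next described by library, with no test. A gene counted as higher or lower when it differed by 2-fold and reached 100 CPM in either library. Between day 28 and sham, 78 of 1772 genes were higher (4.4%) and 82 lower (4.63%). *Apoe* was 31.9 CPM in sham and 1732 at day 28, a log2 ratio of 5.76 (95% counting interval 5.69 to 5.84). *C1qa* was higher by 4.81, while in the Car4+ low class the same ratios were 0.27 for *Apoe* and -1.05 for *C1qa*. *Spp1* and *Fn1* were higher by 3.50 and 3.15, and by 3.67 and 3.68 in the low class. The inflammatory genes *Tnf* (-2.85), *Ccl2* (-2.91) and *Ccl3* (-2.28), the zinc finger gene *Egr1* (-2.44) and *Fabp1* (-2.58) were lower at day 28 than in sham. In the Car4+ low class they were lower too, by -5.05 for *Tnf*, -3.38 for *Ccl2*, -2.38 for *Ccl3*, -3.86 for *Egr1* and -2.18 for *Fabp1*.

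The C1q values came from few cells, and those of *Apoe* and C1q, like *Mmp12* and *Mfge8*, moved with predicted doublets. Cells with 5 or more UMIs of the 3 C1q genes made up 0.608% in sham and 8.50%, 12.1%, 24.4% and 13.7% at day 3 to day 28, against 0%, 0.322%, 4.20%, 0% and 0% of B cells. At day 28 the mean was 4.78 *C1qa* UMIs per cell with a median of 0, and 41.3 *Apoe* UMIs with a median of 5, whereas B cells had a mean of 13.7 and a median of 10 *Apoe* UMIs. *Apoe* at 5 or more UMIs was found in 2.71%, 13%, 33.2%, 89.2% and 60.2% of the cells from sham to day 28, and in 4.69%, 24.1%, 55.0%, 61.1% and 70.1% of B cells, so that the share exceeded that of the shallower B cells at day 14 only. A doublet score marked 11.1%, 15%, 12.8%, 7.82% and 12.4% of Car4+Gpnmb+ macrophages from sham to day 28. It marked 3.89%, 6.51%, 2.73%, 3.77% and 2.78% of the Car4+ low class. In the Car4-negative cells the shares were 7.55%, 4.37%, 5.32%, 8.82% and 10.7%. With predicted doublets removed, *C1qa* in Car4+Gpnmb+ macrophages was 5.15, 47.5, 60.4, 172 and 93.0 CPM. *Apoe* was then 31.1, 99.4, 464, 1757 and 878 CPM, and both were highest at day 14. *Spp1* was 851, 6774, 2978, 8127 and 8748 CPM without them, against 60.5, 98.6, 172, 964 and 1270 CPM in B cells.

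Between day 28 and day 14, 17 of 1730 genes were higher (0.983%) and 50 lower (2.89%), fewer in each direction than between day 28 and sham, with which this comparison shares the day 28 library. *Igf1* was 151 CPM at day 28 and 26.2 at day 14, a log2 ratio of 2.53 (2.37 to 2.68), and the Car4+ low class had 78.5 and 11.3 CPM. After reduction to 4000 UMIs and new gates, *Igf1* was 137 CPM in 115 cells and 98.7 CPM in 38 cells, a difference of less than 2-fold. *Scd1*, a fatty acid desaturase, was 142 and 48.8 CPM, a ratio of 1.54 (1.42 to 1.66), and stood at 25.8 and 22.6 CPM in the low class, where the ratio was 0.19. *Phlda3*, a target of p53, was higher by 1.53, and *Gsr*, glutathione reductase, by 1.23. The ribosomal protein gene *Rpl29* was 307 CPM at day 28 and 5.57 at day 14 and moved likewise in the low class, at 335 and 6.87 CPM. *Cxcl2*, a neutrophil chemokine, was lower at day 28, at 247 against 1098 CPM (-2.15), as were *Il1b* at 131 against 510 CPM (-1.96) and *Egr1* at 90.3 against 392 CPM (-2.12). In the Car4+ low class these ratios were -2.41, -3.00 and -2.81. Of 13 immediate early genes at this level 5 were lower and none higher, with a median of -0.79. Haemoglobin genes of red cells led the lower side, with *Hbb-bs* at 7.74 CPM at day 28 and 353 at day 14. The day 14 value came from few barcodes, with a mean of 10.4 UMIs per cell and a median of 1, and was 46.5 CPM without predicted doublets. The 4 erythroid markers summed to 122, 3.43, 0.242, 697 and 13.6 CPM from sham to day 28, and their part in the other differences was not tested.

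**Figure D5:**
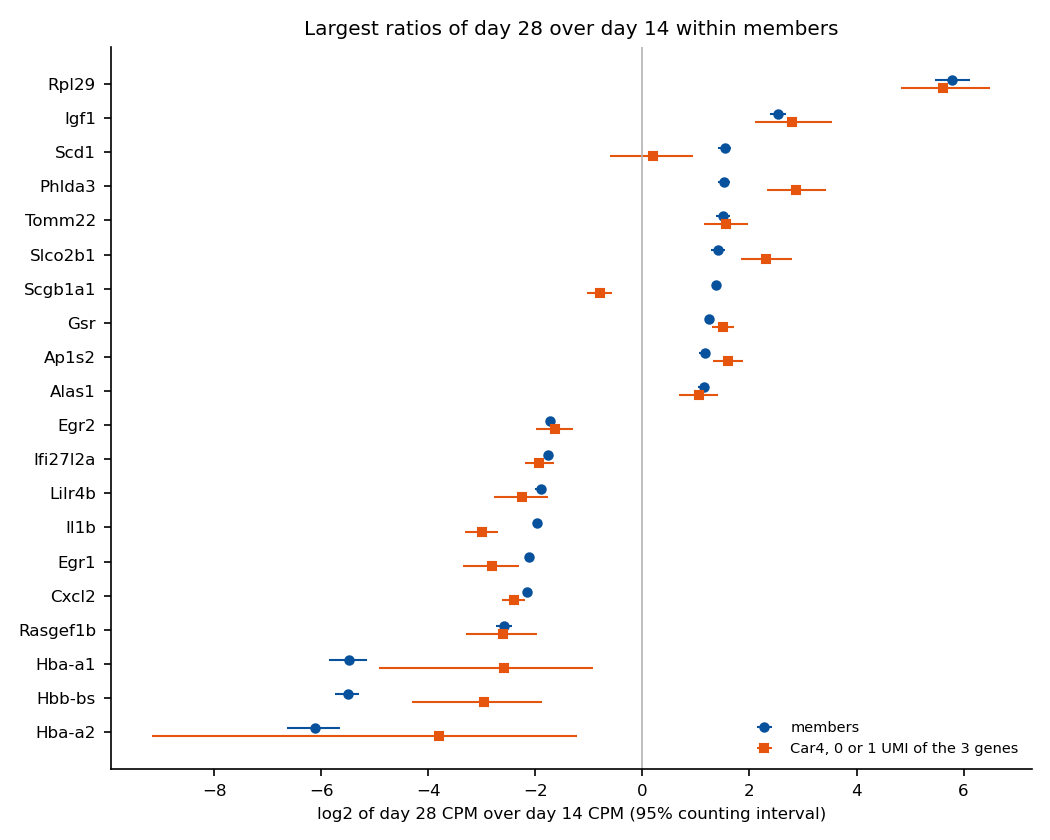
Log2 ratio of day 28 over day 14 for the named genes, with 95% counting intervals, in Car4+Gpnmb+ macrophages and in Car4+ macrophages low in the 3 genes. *Scd1* is 1.54 in the former and 0.19 in the latter, whereas *Rpl29* and *Igf1* are high in both.

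Cells that carried *Mmp12* or *Mfge8* were set beside cells of the same library that entered by *Gpnmb* alone. These subsets were chosen after the values had been seen and so were not tested. At day 28, cells with 5 or more UMIs of both genes summed had *Spp1* at 12805 CPM against 3964 CPM in cells with none, *Trem2* at 320 against 158 CPM, and *C1qa* at 329 against 14.3 CPM. The cells with none numbered 49, and those with 5 or more 418. Mean depth at day 28 was 28431.4 UMIs in the carrying cells and 18612.1 UMIs in the cells with none. In sham it was 26953.9 and 18748.5 UMIs, and carrying cells were deeper in every library. The part of depth in these differences was not tested. *C1qa* in the carrying cells of day 28 had a mean of 9.36 UMIs and a median of 0.5, so that the mean rested on part of the cells. In sham, day 7 and day 14 it was 201, 444 and 434 CPM in carrying cells against 2.56, 165 and 51.0 CPM, with medians of 0, 0 and 1 UMI per carrying cell. At day 3 it went the other way, with a mean of 0.182 UMIs per carrying cell against 1.98. *Siglecf* was 77.3, 129, 98.6, 99.9 and 97.5 CPM in carrying cells from sham to day 28 against 123, 119, 102, 120 and 155 CPM, lower at all times but day 3. *Fabp1* was 156, 33.0, 58.8, 59.0 and 42.0 CPM against 386, 132, 72.7, 65.4 and 124 CPM, nearest at day 7 and day 14. Genes at 100 CPM that were 2-fold higher in the carrying cells numbered 67 of 1720 in sham and 39 of 1734, 35 of 1665, 18 of 1666 and 15 of 1692 at day 3, day 7, day 14 and day 28. Those that were 2-fold lower numbered 22 in sham and 59, 1, 4 and 2. The counts of day 3 rest on 11 carrying cells with 333201 UMIs.

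The reporter feature of the count table, RFP, was taken as tdT. After reduction to 4000 UMIs, 38.1% of Car4+Gpnmb+ macrophages in sham had a reporter UMI (95% exact binomial interval 36.2 to 40.1). The share was 32.7% at day 3 and 26.0% at day 7, then 52.7% (48.2 to 57.2) at day 14, and it ended at 42.1% (38.9 to 45.3). B cells, whose lineage the reporter should not mark, had a UMI in 22.7%, 16.3%, 23.9%, 44.9% and 27.2% of cells, so that part of the signal was background in every library. Before reduction the median depth of the cells was 18228.5 to 27515 UMIs, and the shares were 79.9%, 78.4%, 64.7%, 95.2% and 76.6%. After reduction, the shares with 3 or more UMIs were 2.88%, 5.31%, 3.15%, 19.2% and 18.3%, against 6.63%, 1.09%, 5.88%, 7.25% and 3.51% in B cells. At this common depth the stricter share was above the B cell share at day 3, day 14 and day 28 and below it in sham and at day 7. Without reduction it was 36.0%, 31.4%, 24.7%, 72.7% and 41.2%, above the 8.29%, 3.45%, 11.3%, 17.4% and 6.14% of B cells in every library, but the B cells were shallower, with medians of 4704 to 7006.5 UMIs. In Car4-negative macrophages the stricter share after reduction was 7.55%, 55.4%, 31.2%, 58.1% and 25.1%. As a level, RFP was 131, 155, 114, 470 and 354 CPM in Car4+Gpnmb+ macrophages against 140, 810, 478, 1335 and 443 CPM in Car4-negative cells, lower in each library (-1.35 ± 0.36; edgeR adjusted p = 0.0336, and 0.115 without day 7, with the call lost in 3 of the 5 such fits), and did not pass against the Car4+ low class (-0.53 ± 0.19; edgeR adjusted p = 0.156). That difference was -0.78 among cells of 10000 to 20000 UMIs (edgeR adjusted p = 0.0461) and 0.25 after reduction to 4000 UMIs (edgeR adjusted p = 0.533).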

How the data were processed

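The deposited counts are raw UMIs per gene and barcode, which the authors made with Cell Ranger 6.0.0 on mm10, per the submitters' processing notes. One library per group came from lung immune cells of *Ms4a3-CreER;R26-tdT* mice. The study's limits were applied, that is 300 to 8000 genes per barcode, 800 to 60000 UMIs and a mitochondrial share below 15%, which left 44772 of 52800 barcodes. Doublets were kept; removal by Scrublet in scanpy 1.11.5, with the expected share scaled to library size, was an alternative to the study's package. The cells and all gene lists were chosen with earlier results of these data known.

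UMIs were summed per class and library, and classes were compared by the quasi-likelihood test of edgeR 4.0.16 in R 4.3.3 after TMM normalization and filterByExpr, with library as a block and Benjamini–Hochberg adjustment over all genes tested. The gate genes took no part. The p-values measure spread between libraries, which differ in time point. Shares have exact binomial (Clopper–Pearson) and levels exact Poisson 95% intervals, which cover counting error only. For depth-matched shares each cell was reduced at random to 4000 UMIs, and 4 Car4+Gpnmb+ macrophages in sham and 2 at day 3 below that were left out. B cells were barcodes with 3 or more *Cd79a* UMIs and no *Cd68* UMI, so that B cell barcodes with RNA of that macrophage gene were left out.

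Genes named for the class comparisons were the 12 largest log2 fold changes in each direction among those with adjusted p under 0.05, the same sign in every library and 50 CPM in either class. For day 28 against day 14 they were the 10 largest ratios each way at 100 CPM. The leading 2 genes of each list, the gate genes, the reporter and the genes the study names for its Mac0 cluster were added. Not every gene that met the rule is printed, and some results are not reported here. *Ctsd*, *Gla*, *Lamp1*, *Trem2* and *Maf* as class differences, the genes of the promoter search, and the day 28 to sham ratios were chosen after their values were seen. Promoter windows are those of RefSeq. Alternatives used DESeq2 1.42.0. Scripts ran in Python 3.11.15 with pandas 2.3.3, scipy 1.17.1 and numpy 2.4.6, and figures were drawn with matplotlib 3.10.9.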

Additional observations from a re-analysis of the deposited data

How the results depend on the processing

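Against the Car4+ low class, 520 genes passed, and 939 did with no filter on low counts, 323 with a low class at 0 UMIs, and 2 without the library block (553 at an unadjusted p under 0.05), whose construction adds the spread between time points to the error. Leaving out 1 library gave 235 to 495 genes, 235 without day 3 or day 7, 252 without day 28 and 345 without day 14. Removing predicted doublets gave 660, DESeq2 512 and a 10% mitochondrial limit 500. *Ccl22*, lower by -1.25, was at 0.28 (edgeR adjusted p = 0.624) without barcodes of dendritic markers or *Scgb1a1*. After reduction to 4000 UMIs, *H2-Ab1* was at 0.013 (edgeR adjusted p = 0.994) and *H2-Eb1* at 0.052 (0.942), and 33 of 51 named genes still passed, as did 38 of 50 among cells of 10000 to 20000 UMIs. Leaving out 1 library kept 33 to 49 of them past the threshold, none reversed. Lysosome genes passed as higher in 12 to 21 of 32 and MHC class II genes as lower in 2 to 6 when 1 library was left out.

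Against Car4-negative cells, 3343 genes passed, 782 without the block, 1078 after reduction to 4000 UMIs, and 1489 to 3704 with 1 library left out, 1489 without day 14, 1521 without day 7 and 2196 without day 28. None of the 68 genes named by the rule reversed under any alternative run, but only 44 passed without day 7 and 45 without day 14. Outside the rule, *Ccl22*, lower by -2.62, was at 0.20 (edgeR adjusted p = 0.792) without barcodes of dendritic markers or *Scgb1a1*, and *Fn1*, which did not pass, ranged from -0.94 to 0.17 with 1 library left out. Among cells of 10000 to 20000 UMIs, 2238 passed, 969 higher and 1269 lower, a larger share lower than among all cells. That window and the removal of dendritic-marker barcodes were chosen after the data were seen. The library block pairs the classes within each library, and the labels give no replicate numbers that would pair time points.

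Day 28 against day 14 gave 67 genes at 2-fold, 16 at 3-fold, and 164 after reduction to 4000 UMIs (42 higher, 122 lower), where only 115 and 38 cells remained. The number of Car4+Gpnmb+ macrophages was 769 after that reduction. The reporter shares from sham to day 28 were 79.9%, 78.4%, 64.7%, 95.2% and 76.6% without reduction and 2.88%, 5.31%, 3.15%, 19.2% and 18.3% at 3 or more UMIs after reduction to 4000 UMIs.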

Other observations

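Further gene lists were compared with the Car4+ low class, beside 3.19% of all genes tested that were higher and 1.55% that were lower. Of 26 macrophage transcription factors 1 was higher, *Bhlhe41* (0.69 ± 0.11; edgeR adjusted p = 0.00766), a transcriptional repressor that helps to maintain AM identity, and 1 lower, *Irf5* (-0.64 ± 0.13; edgeR adjusted p = 0.0188, and 0.0658 without day 28), an inducer of inflammatory cytokines. Of 19 chemokine ligands 5 were higher and 1 lower, led by *Cxcl9* at 3.30, 28.4, 24.5, 5.98 and 8.37 CPM from sham to day 28 against 2.81, 5.86, 5.29, 0.491 and 1.12 CPM (1.95 ± 0.33; edgeR adjusted p = 0.00991, and 0.0604 and 0.0620 without day 3 or day 7). *Ccl22* was lower by -1.25 (edgeR adjusted p = 0.0311, and 0.143 without day 7). Without barcodes of dendritic markers or much *Scgb1a1* it was at 0.28 (edgeR adjusted p = 0.624). Of 19 growth factor and TGF-beta genes 5 were higher, among them *Hbegf* (2.74 ± 0.48; edgeR adjusted p = 0.0131, 0.0657 without day 7 and 0.0767 after reduction to 4000 UMIs), which stayed under 8 CPM in every library. Of 16 glycolysis genes 3 were higher, among them the hexokinase *Hk3* (0.67, but 0.19 with edgeR adjusted p = 0.656 among cells of 10000 to 20000 UMIs, and lost without any 1 of the bleomycin libraries), and none of 15 immediate early genes passed.

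Against Car4-negative cells, where 13% of all genes tested were higher and 12.4% lower, 2 growth factor genes were higher and 9 of 20 lower, among them *Vegfa*, the endothelial growth factor (-2.71 ± 0.37; edgeR adjusted p = 0.00275). Of 21 matrix genes 7 were lower, led by thrombospondin *Thbs1* (-3.17 ± 0.54; edgeR adjusted p = 0.00649), and 2 were higher, among them the transglutaminase *Tgm2* (1.21 ± 0.10; edgeR adjusted p = 0.000462). From sham to day 28, 6 fibroblast markers summed to 982, 23.8, 102, 64.3 and 11.5 CPM in Car4-negative cells. In Car4+Gpnmb+ macrophages they summed to 10.3, 176, 63.8, 4.55 and 3.21 CPM, higher at day 3 only. Their part in these differences was not tested. Of 19 efferocytosis and scavenger genes 6 were higher, led by *Marco*, and 5 lower, led by *Stab1* (-2.89). The receptors *Mertk* (0.86 ± 0.19; edgeR adjusted p = 0.0168, and 0.0756 without day 7) and *Axl* (0.78 ± 0.10; edgeR adjusted p = 0.00238), which bind dying cells through bridging proteins, were higher. Of 19 replication genes 3 were higher, a share near that of all genes, led by *Mcm2* (1.04, with edgeR adjusted p = 0.0589 without day 14 and 0.0938 after reduction to 4000 UMIs), and none lower; cells with *Top2a* or *Mki67* UMIs had been left out by the rule.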
